A study of Mus musculus with 6 samples.

Results

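The 6 libraries of this series were made from total RNA of mouse small intestine after depletion of ribosomal RNA (rRNA). They fell into 3 that were rich and 3 that were poor in rRNA, chosen by the measured share of read counts in rRNA rows. This account follows that division through the RNA classes and tissue genes. A library was placed among the rRNA-rich when 4% or more of its read counts lay in rows with the rRNA biotype, and among the rRNA-poor when that share was under 2.5%. The rule took 3 of 6 libraries for each side. The rRNA-rich libraries were GFP 1-1, GFP 3-1 and PKCzeta 2-1, and the rRNA-poor ones were GFP 1-4, PKCzeta 4-1 and PKCzeta 4-2. Values are given in that order throughout, rich libraries first. The sides are not groups of the study. They were drawn from a value measured in the same libraries, so that value is described without a test, and the p-values below describe how far other genes separate along it.

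The study compared small intestine labelled as a control with small intestine labelled for overexpression of PRKCZ, the gene of the atypical protein kinase C zeta (PKCzeta). The control titles name a green fluorescent protein (GFP), all 6 titles begin with the letters DIO, which are not explained, and each label group held 3 libraries. Strain, sex, age, the vector and its promoter, the segment of intestine sampled and whether each library was a separate animal are not given in the sources used here, so p-values measure the spread between these samples, which may be technical. Each side held libraries of both labels, 2 GFP and 1 PKCzeta among the rich and 1 GFP and 2 PKCzeta among the poor. Total counts ran from 77573133 to 93742978, and both ends of that range were not on one side, since GFP 3-1 (rich) had the most and PKCzeta 4-1 (poor) the fewest. Prkcz itself stood at 72.7, 99.9 and 85.1 CPM in the rich and 102, 103 and 58.8 CPM in the poor libraries (CPM, counts relative to a library's total after trimmed-mean scaling in edgeR, without rRNA rows). Neither the sides nor the labels separated it.

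A mammalian cell holds 2 sets of ribosomes. Those of the cytosol carry rRNA made by RNA polymerase I in the nucleolus, while those of the mitochondrion carry a 12S and a 16S rRNA, mt-Rnr1 and mt-Rnr2, cut from the same long transcripts of the mitochondrial genome as its mRNAs and tRNAs. Intestinal tissue lends itself to such comparisons because it joins absorptive enterocytes, dense in mitochondria, to crypts in which stem and progenitor cells divide beside Paneth cells, the secretory cells that release antimicrobial peptides. Total RNA libraries also contain abundant structured RNAs without a poly(A) tail, such as 7SL (the RNA of the signal recognition particle), 7SK (which holds the elongation factor P-TEFb in check), and the catalytic RNAs of RNase P and RNase MRP.

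The rRNA that set the libraries apart was mitochondrial. The rule's share was 4.40%, 4.66% and 4.44% in the rich libraries and 1.35%, 2.33% and 0.956% in the poor ones. The members nearest the limits were GFP 1-1 at 4.40% on the inside and PKCzeta 4-1 at 2.33% on the outside. The 16S RNA mt-Rnr2 alone made 4.23%, 4.47% and 4.25% against 1.29%, 2.24% and 0.919%, and the 12S RNA mt-Rnr1 made 0.175%, 0.196% and 0.189% against 0.0536%, 0.0914% and 0.0376%. The table has 64 rRNA rows, and the 62 that are not mitochondrial held 2 to 4 counts in a library. It has no row for Rn18s or Rn45s, genes of cytosolic rRNA, and the libraries had been depleted of rRNA. PKCzeta 4-1 therefore lay between the other poor libraries and the rich ones, and cytosolic rRNA was not part of the comparison. The row of Rn18s-rs5, a relic of 18S rRNA, did not follow the sides, with 0.00884%, 0.00394% and 0.0114% against 0.0161%, 0.00224% and 0.00366% of counts.

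The main RNA of the rule and 2 RNAs that had no part in it are shown here. They are from GENCODE M21 on GRCm38 (mm10), 5′ to 3′. The first is the start of the RNA that chose the libraries, of 1582 bases in full with 35.4% G and C, at MT:1094-2675 on the plus strand. The other pair, the RNA of RNase P at chr14:50807449-50807767 (minus strand) and that of RNase MRP at chr4:43492788-43493058 (minus strand), are related RNAs that share proteins and behaved differently here; capitals mark the 2 stretches of at least 9 bases that they have in common.
mt-Rnr2, first 90 bases: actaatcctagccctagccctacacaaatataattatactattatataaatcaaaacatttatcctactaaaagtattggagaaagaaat
Rpph1, bases 1 to 300 of 319: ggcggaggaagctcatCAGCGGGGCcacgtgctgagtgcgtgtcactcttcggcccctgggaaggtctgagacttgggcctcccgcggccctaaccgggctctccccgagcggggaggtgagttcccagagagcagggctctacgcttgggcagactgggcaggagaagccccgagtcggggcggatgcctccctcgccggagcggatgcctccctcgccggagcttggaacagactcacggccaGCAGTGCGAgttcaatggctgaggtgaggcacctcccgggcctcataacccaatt
Rmrp: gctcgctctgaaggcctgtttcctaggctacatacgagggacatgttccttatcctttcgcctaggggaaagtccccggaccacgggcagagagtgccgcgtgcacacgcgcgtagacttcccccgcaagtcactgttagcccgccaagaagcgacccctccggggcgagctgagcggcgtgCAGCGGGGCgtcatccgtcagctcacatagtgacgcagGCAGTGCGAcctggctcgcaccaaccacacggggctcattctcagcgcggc

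The mRNAs and tRNAs of the mitochondrial genome stood higher with the rRNA as classes, and the mRNAs nearly gene by gene. Mitochondrial mRNA made 4.63%, 6.02% and 4.71% of all counts in the rich libraries and 2.00%, 3.31% and 1.94% in the poor ones. Mitochondrial tRNA made 0.0418%, 0.0531% and 0.0445% against 0.0181%, 0.0302% and 0.0176%. Most of that tRNA share lay in 1 row, TrnS1, at 0.0397%, 0.0512% and 0.0423% against 0.0170%, 0.0286% and 0.0165%. TrnS1 overlaps the end of COX1, whose count is far higher, and both had a log2 fold change of 1.29. Whether its reads came from COX1 was not tested. All mitochondrial rows together made 9.08%, 10.7% and 9.19% against 3.37%, 5.67% and 2.92%. None of these ranges overlapped. Of 19 mitochondrial tRNA rows tested, all 19 had a log2 fold change above 0 (rich minus poor). In CPM, 12 of the 19 lay higher in every rich library than in any poor one. Of all genes, 49.9% and 9.93% did so. The mitochondrial mRNAs and tRNAs share precursor transcripts with the rRNA that drew the sides, so they are not independent of the rule. The ratio of mitochondrial rRNA to mRNA was itself higher in the rich libraries, at 0.950, 0.775 and 0.944 against 0.673, 0.704 and 0.492. Its numerator is the value that chose the libraries, so the ratio is a description only.

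**Figure D1:**
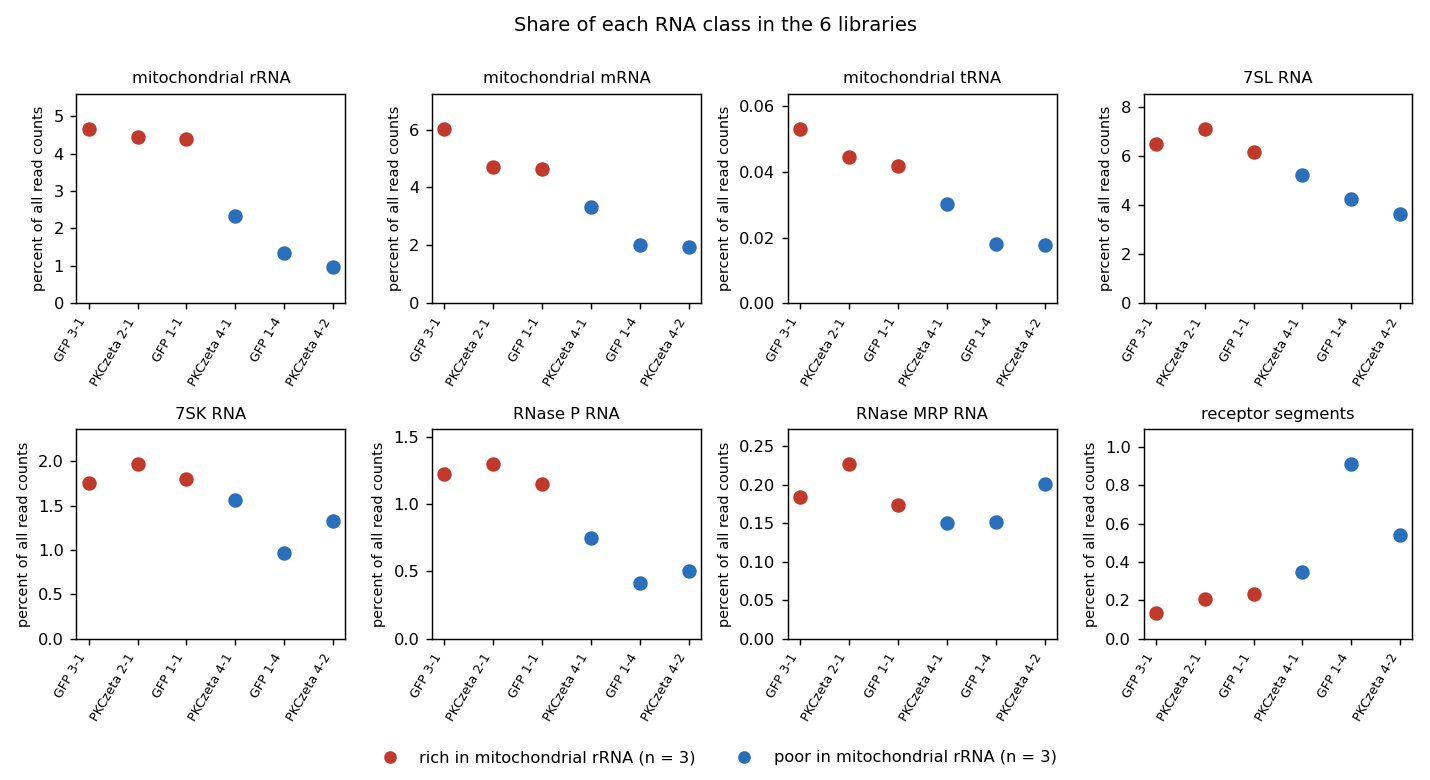
Percent of all read counts in 8 RNA classes, by library (x axis, ordered by rRNA share; y axis from 0; red, rRNA-rich; blue, rRNA-poor; each point 1 library). Mitochondrial rRNA drew the sides, so its order was fixed in advance. Mitochondrial mRNA and tRNA, 7SL, 7SK and RNase P RNA lie higher in all 3 rich libraries. Receptor segments lie lower, and RNase MRP RNA overlaps between the sides.

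Of the 13 mitochondrially encoded mRNAs, all 13 had a log2 fold change above 0 (rich minus poor, median 1.32), as did 49.9% of all genes, and 11 lay higher in every rich library than in any poor one. Over all 18454 genes tested, 9.93% did so in that direction and 13.9% in the other. An unadjusted p under 0.05 in edgeR's quasi-likelihood test was reached by 11 of the 13, against 7.18% of all genes higher and 9.99% lower. None of the 13 passed an adjusted p of 0.05 (Benjamini-Hochberg over all genes), a limit that 0.00542% of genes passed. COX1, a core subunit of cytochrome c oxidase (complex IV), stood at 35199, 50500.0 and 33676 CPM in the rich and 14509, 22678 and 11658 CPM in the poor libraries, which is 1.29 on the log2 scale (SE 0.35, edgeR adjusted p 0.139). ND5, a subunit of complex I, stood at 126, 151 and 109 against 31.4, 59.05 and 29.7 CPM (1.68, SE 0.29, edgeR adjusted p 0.087). CYTB, the mitochondrially encoded subunit of complex III, stood at 528, 678 and 536 against 166, 309 and 149 CPM (1.48, SE 0.29, edgeR adjusted p 0.0973). In each of these PKCzeta 4-1 was the highest of the poor libraries and GFP 3-1 the highest of the rich.

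The exceptions were ND4L and ND6. ND6, the only mRNA encoded on the other strand, stood at 2.496, 5.17 and 4.64 against 2.63, 3.78 and 3.44 CPM, or 0.32 on the log2 scale (SE 0.31, edgeR adjusted p 0.638), and turned to -0.0088 on log2(TPM + 1). It overlaps the end of ND5, whose level is far higher. ND4L stood at 0.767, 1.47 and 1.27 against 0.177, 0.913 and 0.434 CPM. Both overlapped between the sides at low counts. Read counts per kilobase put mt-Rnr2 at 1.30, 1.01 and 1.27 times COX1 in the rich libraries and at 0.923, 0.948 and 0.665 times COX1 in the poor. On the same scale mt-Rnr1 was at 0.0893, 0.0735 and 0.0937 against 0.0633, 0.0641 and 0.0451, so the 12S row was far below the 16S row in every library. Whether the depletion of rRNA had a part in these rRNA levels was not tested.

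The nuclear genes that serve the mitochondrion did not follow its own transcripts. Of 40 nuclear genes of oxidative phosphorylation, 11 had values above and 29 below 0 (median -0.089), and 2 reached an unadjusted p under 0.05, both lower. Atp5g1, a gene for the c subunit of ATP synthase, stood at 94.7, 130.3 and 101 against 157, 130.4 and 148 CPM (-0.42, SE 0.17). The machinery that copies, transcribes and processes mitochondrial DNA had 21 of 22 members below 0 (median -0.44), 14 of them at an unadjusted p under 0.05. Lrpprc, which stabilises mitochondrial mRNAs, stood at 61.2, 50.4 and 58.5 against 96.1, 74.9 and 124 CPM (-0.80, SE 0.20), and Supv3l1, a helicase of mitochondrial RNA decay, at 11.2, 13.4 and 10.4 against 19.7, 16.9 and 22.3 CPM (-0.75, SE 0.18). Neither pair of ranges overlapped. Proteins of the mitochondrial ribosome, whose rRNA was high, had 37 of 38 mRNAs below 0 (median -0.36, 20 at an unadjusted p under 0.05, all lower). Mrps22 stood at 13.7, 14.01 and 15.6 against 22.8, 19.5 and 28.4 CPM (-0.71, SE 0.18). No member of these 3 lists passed an adjusted p of 0.05 in edgeR.

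Several structured noncoding RNAs of the nucleus and cytosol stood higher in the rich libraries too. The RNA of RNase P, the enzyme that trims the 5′ ends of tRNAs, made 1.15%, 1.22% and 1.30% of counts in the rich libraries and 0.414%, 0.748% and 0.506% in the poor, a ratio of medians of 2.42. Its main row, Rpph1, stood at 12786, 14335 and 13371 against 4381, 7363 and 4375 CPM (1.33, SE 0.29, edgeR adjusted p 0.102). The 7SL rows made 6.15%, 6.49% and 7.10% against 4.23%, 5.21% and 3.64% of counts, and the difference for Rn7s1 was 0.77 in log2 units (SE 0.30, edgeR adjusted p 0.249). Reads of Rn7s1 and of its copy Rn7s2 cannot be told apart. The 7SK RNA, Rn7sk, made 1.79%, 1.75% and 1.97% against 0.968%, 1.56% and 1.33% (0.71, SE 0.27, edgeR adjusted p 0.238). In all 3 the rich libraries lay above the poor ones, with PKCzeta 4-1 nearest to them.

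RNase MRP, the sister of RNase P that cleaves pre-rRNA, differed less. Its RNA, Rmrp, made 0.174%, 0.184% and 0.227% of counts in the rich libraries and 0.152%, 0.151% and 0.201% in the poor, which overlap. In CPM its ranges were 1928, 2157 and 2335 against 1613, 1481 and 1734 and did not overlap (0.41, SE 0.19, edgeR adjusted p 0.315). The ratio of Rpph1 to Rmrp counts, which needs no scaling between libraries, was 6.63, 6.65 and 5.73 in the rich and 2.72, 4.97 and 2.52 in the poor libraries. The sequences of both RNAs are shown above, at similar lengths (319 and 271 bases) and G and C contents (67.1% and 64.2%).

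Over the list of 23 structured noncoding RNAs, 22 had values above 0 (median 0.72), 14 had ranges that did not overlap and 12 an unadjusted p under 0.05, all higher. Scarna6, a guide RNA of Cajal bodies, stood at 21.9, 23.1 and 23.9 against 8.86, 11.02 and 6.15 CPM (1.41, SE 0.22). It lies within Atg16l1, an autophagy gene with a log2 fold change of -0.37, below 0. Snora73b, a nucleolar RNA needed for 18S rRNA processing, stood at 29.5, 28.1 and 33.8 against 18.5, 14.7 and 15.9 CPM (0.89, SE 0.16) and lies within Snhg3. Small nucleolar and Cajal body RNAs as a class made 0.0401%, 0.0346% and 0.0503% of counts against 0.0244%, 0.0305% and 0.0287%. Spliceosomal small nuclear RNAs without 7SK overlapped in summed share (0.0136%, 0.0142% and 0.0155% against 0.0147%, 0.00941% and 0.00963%). Gene by gene, 45 of 47 such small nuclear RNAs tested were above 0 (median 0.45), and 11 did not overlap, all higher. For small nucleolar and Cajal body RNAs it was 74 of 107 (median 0.27), with 26 higher and 5 lower without overlap. Over all genes, 49.9% were above 0, and 9.93% lay higher and 13.9% lower without overlap.

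Long noncoding RNAs of the nucleus gave a mixed picture. Malat1, a nuclear speckle RNA, stood at 1144, 1111 and 1010.4 against 329, 859.6 and 533 CPM (0.92, SE 0.32), and Neat1, the scaffold of paraspeckles, at 59.8, 91.8 and 64.03 against 12.6, 39.2 and 25.3 CPM (1.48, SE 0.40). Both were lowest in GFP 1-4 and neither overlapped between the sides. Of 15 such RNAs 10 had values above 0 (median 0.59), with 4 higher and 0 lower at an unadjusted p under 0.05. A list of transcripts known as intronic or retained in the nucleus shared 4 members with these, Malat1, Neat1, Meg3 and Kcnq1ot1. Without those 4, the other 11 long noncoding RNAs had 6 values above 0 (median 0.058), with 1 higher at that limit. Of the 12 others in the list of intronic or retained transcripts, 9 were above 0 (median 0.27) and 5 reached that limit, all higher. Among them was Pnisr, a splicing-related gene, with 35.6, 31.6 and 35.2 against 19.5, 24.5 and 20.96 CPM. Xist was not tested, with 0 to 16 counts in a library.

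Nuclear mRNA held a smaller share of the rich libraries. Nuclear protein-coding genes made 80.4%, 78.5% and 78.9% of counts in the rich and 89.0%, 85.3% and 89.7% in the poor libraries. Since shares sum to a fixed total, the gene tests that follow use scaling factors that bring the median of all genes to -0.00040 on the log2 scale. After that scaling 1 gene of 18454 passed an adjusted p of 0.05, and 0 stood higher. An unadjusted p under 0.05 was reached by 3168 genes (17.2%), of which 1325 stood higher and 1843 lower in the rich libraries. The ranges of 4398 genes (23.8%) did not overlap. The first principal component, with 35.9% of the variance of log2 CPM, placed the rich libraries at 26.8, 31.2 and 14.1 and the poor at -20.7, -9.94 and -41.4. With the log2 rRNA percent as a number in place of the sides, 595 genes (3.22%) passed, 84 higher and 511 lower with more rRNA. DESeq2 on the sides called 1120 of 27445 (4.08%), 425 higher and 695 lower. Of those 27445 genes, 11199 had no adjusted p in DESeq2, so the 2 percentages have unlike bases.

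Iglv2, a variable segment of the immunoglobulin lambda light chain, was the gene that passed and was named after its values were seen. It lay at 1.08, 0.749 and 0.723 CPM in the rich libraries and at 14.1, 11.6 and 10.8 CPM in the poor ones, and fell by 3.84 on the log2 scale (SE 0.26, edgeR adjusted p 0.0058). Its adjusted p was 0.052, 0.065 and 0.060 without GFP 1-4, GFP 3-1 or PKCzeta 2-1, and 0.088 with the rRNA percent as a number. Antibody genes of plasma cells, which secrete IgA into the gut, stood lower around it. Antigen receptor segments as a class made 0.233%, 0.136% and 0.208% of counts in the rich and 0.909%, 0.346% and 0.542% in the poor libraries. Of 12 plasma cell genes 9 were below 0 (median -0.61), 6 lower and 1 higher at an unadjusted p under 0.05. Jchain, which joins IgA into dimers, stood at 724, 487 and 548 against 2139, 888 and 1172 CPM (-1.26, SE 0.34, edgeR adjusted p 0.135), highest in GFP 1-4. Derl3, a gene of protein quality control in secretory cells, stood at 0.559, 0.637 and 0.557 against 2.91, 1.27 and 2.16 CPM (-1.85, SE 0.36). B cell genes showed no such order. Pax5, the B cell identity factor, stood at 7.29, 0.0624 and 26.4 against 2.07, 0.152 and 5.41 CPM, highest in PKCzeta 2-1 and lowest in GFP 3-1, both rich.

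**Figure D2:**
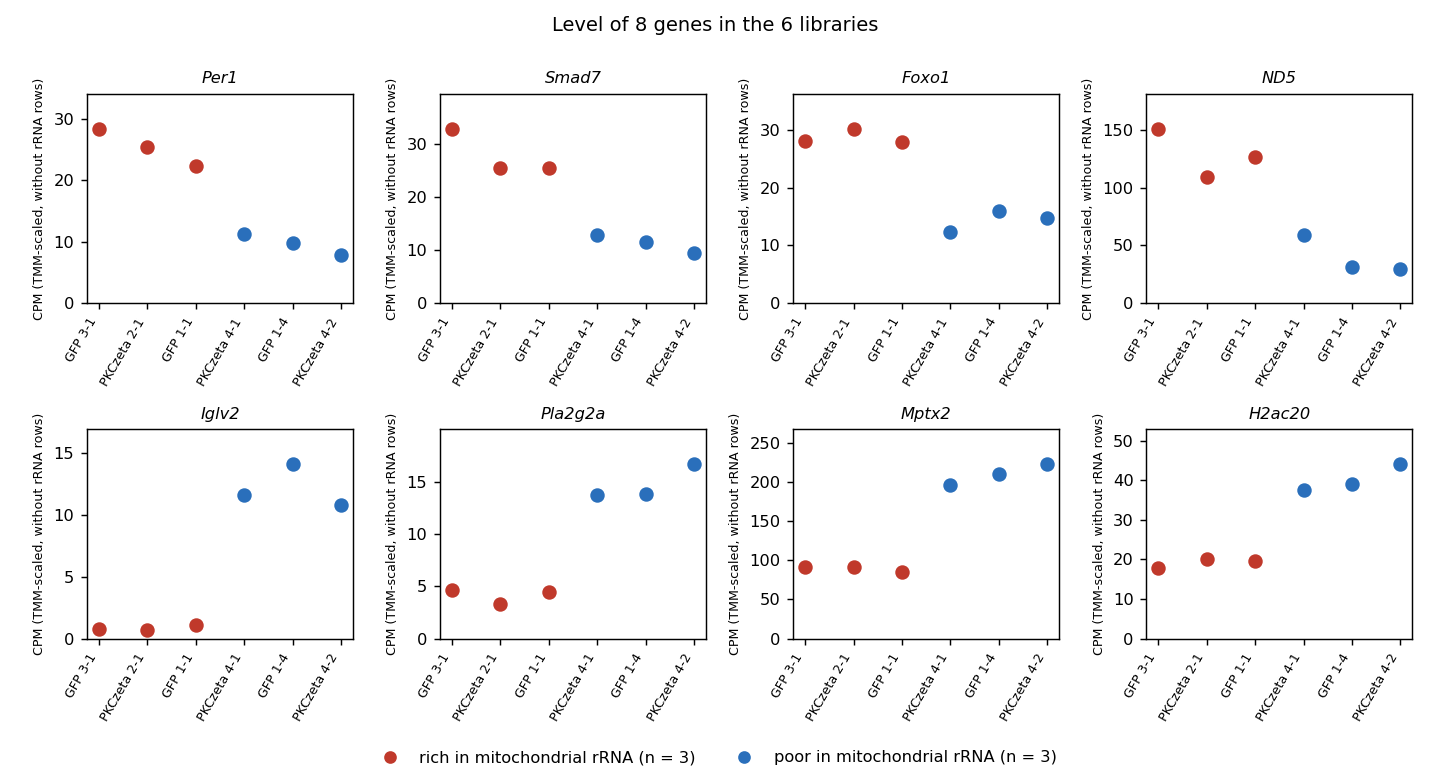
CPM of 8 genes in the 6 libraries (x axis, ordered by rRNA share; y axis from 0; red, rRNA-rich; blue, rRNA-poor; each point 1 library). Per1, Smad7, Foxo1 and ND5 lie higher and Iglv2, Pla2g2a, Mptx2 and H2ac20 lower in all 3 rich libraries, and Iglv2 alone passed the adjusted threshold.

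Paneth cell genes stood lower in the rich libraries without exception among those tested. All 14 had values below 0 (median -1.43), all 14 had ranges that did not overlap, and all 14 reached an unadjusted p under 0.05. Ang4, an antimicrobial ribonuclease, stood at 141, 217 and 158 against 635, 371 and 601 CPM (-1.64, SE 0.26, edgeR adjusted p 0.087). Mmp7, the protease that activates mouse alpha-defensins, stood at 70.9, 78.1 and 60.03 against 139, 149 and 167 CPM (-1.12, SE 0.15, edgeR adjusted p 0.087). Pla2g2a, named for a phospholipase that kills bacteria and listed as a transcribed pseudogene in the table, stood at 4.48, 4.62 and 3.34 against 13.8, 13.7 and 16.7 CPM (-1.83, SE 0.20, edgeR adjusted p 0.087). The alpha-defensin Defa22 stood at 775, 1193 and 766 against 3404, 1959 and 2790.4 CPM (-1.58, SE 0.29), and belongs to a family of near-identical copies among which reads may be split. Every rich library lay below every poor one in these 4, within each label as well as across them. The mean deviation of log2 CPM over the list was -0.95, -0.28 and -0.89 in the rich and 0.94, 0.33 and 0.85 in the poor libraries. In bulk tissue fewer cells of a type and less RNA per cell cannot be told apart.

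The other residents of the crypt base and the dividing cells above it went partly the same way. All 24 cell cycle genes were below 0 (median -0.91), with 20 at an unadjusted p under 0.05 and 20 without overlap. Cdk1, the kinase that starts mitosis, stood at 12.9, 13.1 and 10.98 against 26.2, 20.95 and 31.7 CPM (-1.09, SE 0.19, edgeR adjusted p 0.087), and Mcm6, a subunit of the replicative helicase, at 39.2, 34.97 and 35.1 against 70.98, 55.7 and 77.04 CPM (-0.90, SE 0.16). Stem cell markers differed less, with 10 of 14 below 0 (median -0.19) and 2 at that limit. Smoc2, a marker of crypt base columnar cells, stood at 41.6, 40.8 and 29.8 against 41.7, 51.2 and 55.8 CPM (-0.41, SE 0.18), while Cdca7, a chromatin gene of dividing cells in the same list, stood at 15.7, 15.1 and 14.1 against 29.5, 33.9 and 47.2 CPM (-1.30, SE 0.20).

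Replication-dependent histone genes, whose mRNAs lack a poly(A) tail and are made in S phase, were lower in step with the cell cycle genes. Of 30 tested 28 were below 0 (median -0.82), 27 did not overlap and 25 reached an unadjusted p under 0.05, all lower. H2ac20 stood at 19.7, 17.95 and 20.1 against 39.1, 37.6 and 44.03 CPM (-1.06, SE 0.14, edgeR adjusted p 0.087), and H2bc14 at 17.7, 17.9 and 15.1 against 41.5, 34.4 and 44.3 CPM (-1.25, SE 0.16). H2ac4 stood at 23.7, 21.6 and 20.2 against 51.97, 41.5 and 53.6 CPM (-1.17, SE 0.15). Every poor library lay above every rich one in these 3. Histone copies are alike in sequence, so reads may be split among them. Since the members lay lower together, the 150 bases before the start of 3 of them are printed from RefSeq (GRCm38.p6), read along the gene's strand, with the letters CCAAT or its reverse complement ATTGG in capitals.
H2bc14, chr13:21721894-21722043, plus strand: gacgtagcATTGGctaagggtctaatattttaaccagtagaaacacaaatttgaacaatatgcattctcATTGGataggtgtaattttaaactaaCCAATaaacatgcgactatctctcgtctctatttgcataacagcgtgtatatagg
H2ac4, chr13:23750938-23751087, plus strand: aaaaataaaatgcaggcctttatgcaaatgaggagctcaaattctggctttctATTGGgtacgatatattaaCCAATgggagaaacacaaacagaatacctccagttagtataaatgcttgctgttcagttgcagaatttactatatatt
H2ac20, chr3:96220881-96221030, minus strand: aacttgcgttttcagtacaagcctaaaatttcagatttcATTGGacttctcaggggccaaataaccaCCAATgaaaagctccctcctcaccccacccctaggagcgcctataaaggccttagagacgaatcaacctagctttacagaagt
Within the 250 bases before the start, CCAAT on either strand was present in 24 of 28 promoters of 27 listed histone genes (85.7%) and in 33.8% of 32851 mouse promoters in the same table. The letters ATTTGCAT (an octamer, either strand) were present in 25% and 1.6%, and TATAAA in 50% and 12.4%. A match is a description of these letters only.

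Genes that build cytosolic ribosomes stood lower as well. Of 33 genes of RNA polymerase I and ribosome biogenesis 31 were below 0 (median -0.73), with 26 not overlapping and 25 at an unadjusted p under 0.05, all lower. Polr1b, a core subunit of RNA polymerase I, stood at 6.99, 8.38 and 8.005 against 19.8, 17.03 and 27.4 CPM (-1.46, SE 0.21, edgeR adjusted p 0.087). Nop56, a core protein of box C/D small nucleolar particles, stood at 16.6, 14.3 and 14.6 against 34.9, 35.2 and 59.5 CPM (-1.51, SE 0.23), and Dkc1, the pseudouridine synthase of box H/ACA particles, at 13.2, 13.9 and 15.4 against 28.6, 25.7 and 38.96 CPM (-1.14, SE 0.19). PKCzeta 4-2, with the least mitochondrial rRNA, was the highest for all 3. The proteins of the finished cytosolic ribosome differed far less, with 68 of 79 below 0 at a median of -0.19. At that limit 3 were lower and 1 higher. The ranges of 10.1% of them did not overlap, fewer than the 23.8% of all genes. Rpl3 stood at 503, 498 and 659 against 786, 666 and 834 CPM (-0.46, SE 0.19), with its ranges just apart.

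Protein folding genes were lower too. In the list of heat shock and unfolded protein response 18 of 21 were below 0 (median -0.63), 9 at an unadjusted p under 0.05. Hspd1, the mitochondrial chaperonin, stood at 108, 103 and 99.4 against 188, 183 and 272 CPM (-1.05, SE 0.19, edgeR adjusted p 0.087), and Hsp90aa1, the inducible cytosolic HSP90, at 143, 135 and 136 against 232, 195 and 328 CPM (-0.87, SE 0.20). Asns, the asparagine synthetase induced by amino acid shortage, stood at 44.5, 28.7 and 27.2 against 57.8, 62.2 and 90.3 CPM (-1.07, SE 0.25). None of the ranges overlapped.

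**Figure D3:**
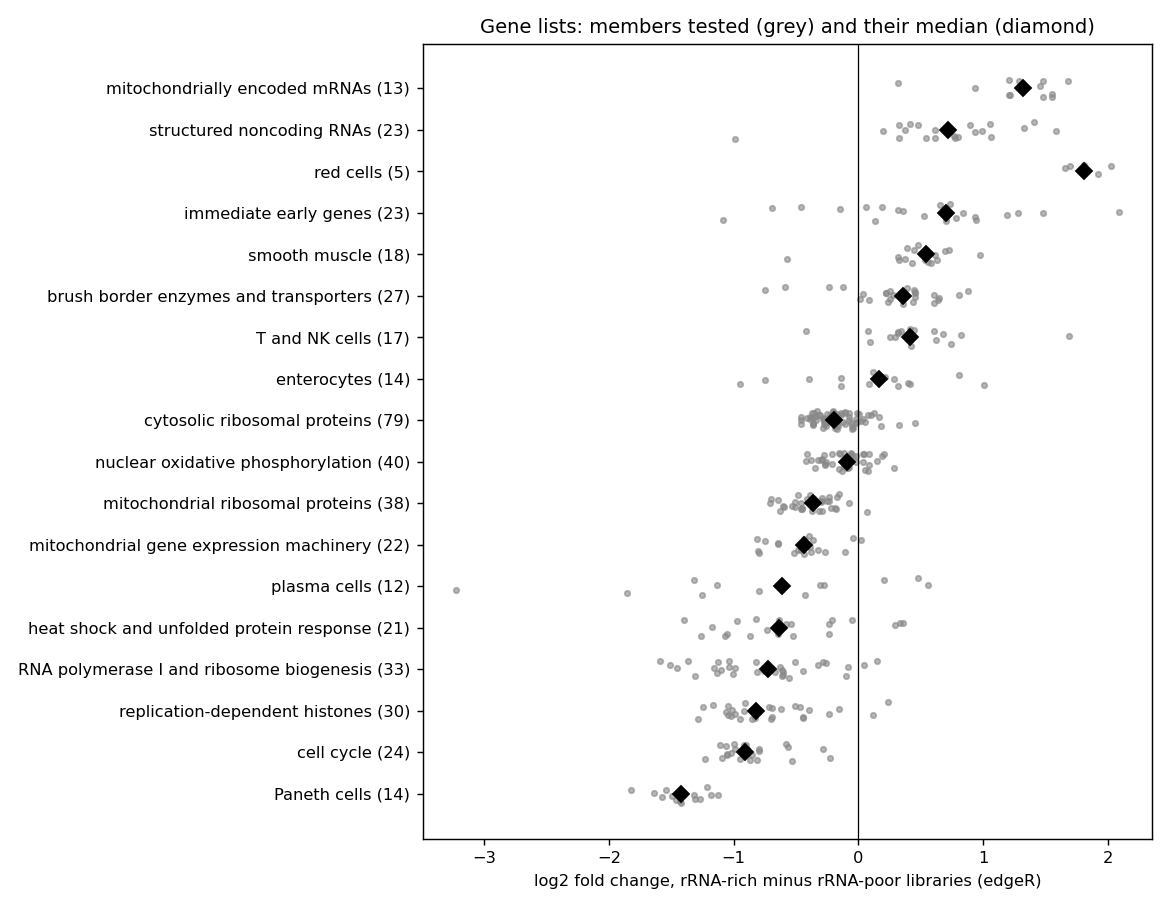
Log2 fold change of the rich over the poor libraries (x axis, edgeR) for the tested members of 18 gene lists (y axis; number tested in brackets); grey points are genes and diamonds the list median. Mitochondrially encoded mRNAs (median 1.32) and red cell genes (1.81) lie to the right, and Paneth cell genes (-1.43), cell cycle genes (-0.91) and histones (-0.82) to the left.

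When the rRNA percent was fitted as a number, 11 of 13 mitochondrial mRNAs passed an adjusted p of 0.05 in edgeR with more rRNA, against 0.455% of all genes higher. In the other direction, where 2.77% of all genes passed, the calls held 20 of 30 histones, 19 of 24 cell cycle genes, 18 of 33 genes of ribosome biogenesis and 11 of 14 Paneth cell genes. The fit takes its number from the rule's own value, and the mitochondrial mRNAs share precursor transcripts with that rRNA. Their calls in this fit are therefore not independent of the rule and are a description only. On the sides, DESeq2 gave Pla2g2a, Mptx2 and Pop1 adjusted p-values of 4.8e-11, 3.9e-09 and 2.3e-08, where edgeR gave 0.087 for each.

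**Figure D4:**
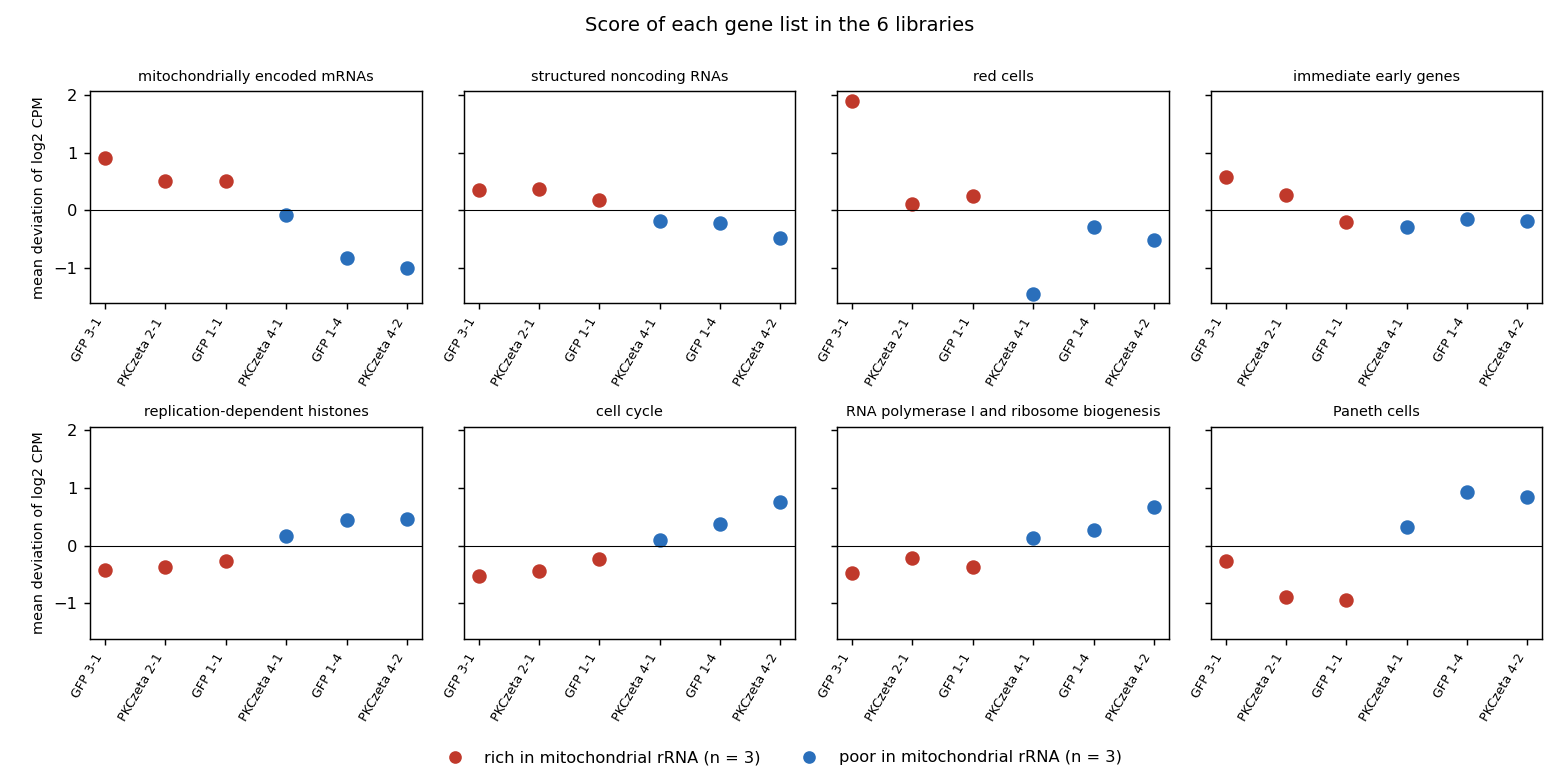
Mean deviation of log2 CPM from each gene's mean over the 6 libraries, averaged over the members of 8 lists (y axis, log2 units), by library (x axis, ordered by rRNA share; red, rRNA-rich; blue, rRNA-poor). The sides do not overlap in 7 of the 8 lists; immediate early genes overlap, with GFP 1-1 at -0.20 beside the poor libraries.

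The absorptive surface did not divide along the sides. Of 14 enterocyte genes 9 were above 0 (median 0.16, and -0.035 with the label as a covariate), and 1 reached an unadjusted p under 0.05. Apoa1, an apolipoprotein of chylomicrons, stood at 6025, 6579.9 and 4083 against 6110.0, 4453 and 1965 CPM. PKCzeta 4-2 was the lowest and the others overlapped. The enterocyte score was 0.57, 0.28 and -0.57 in the rich and 0.63, 0.17 and -1.09 in the poor libraries. The brush border list had 23 of 27 above 0 (median 0.36) with 0 that did not overlap. Markers of the proximal small intestine had 6 of 12 above 0 (median -0.053), and those of the distal part 15 of 17 (median 0.39), with 4 at that limit. Slc51b, a bile acid exporter of the ileum, stood at 222, 292 and 182 against 166, 135 and 116 CPM (0.74, SE 0.22), while Fgf15, the ileal hormone, overlapped and was highest by far in GFP 3-1 at 122 CPM.

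The other epithelial types also overlapped for the most part. Goblet cell genes had 8 of 13 below and 5 above 0 (median -0.22). Atoh1, the factor that sets the secretory lineage, stood at 18.6, 19.2 and 12.2 against 29.5, 23.1 and 28.1 CPM (-0.69, SE 0.21), and the goblet cell peptide Spink4 at 206, 284 and 247 against 340.1, 311 and 402 CPM (-0.51, SE 0.18), both lower in every rich library. Muc2, the gel-forming mucin of the same list, went the other way, at 1482, 2045 and 1600.0 against 433, 914 and 1096 CPM (1.07, SE 0.34). Of the 13 goblet cell genes, 3 were lower and 1 was higher in every rich library. That is 30.8% without overlap, not far from the 23.8% of all genes. Enteroendocrine genes had a median of 0.081 over 15 and tuft cell genes 0.072 over 11, with 1 and 0 at an unadjusted p under 0.05.

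Red cell genes had the highest median of the cell type lists. All 5 were above 0 (median 1.81), did not overlap and reached an unadjusted p under 0.05 in edgeR. Over all genes, 9.93% lay higher without overlap and 7.18% were higher at that limit. Hba-a1, Hba-a2, Hbb-bs and Hbb-bt of this list are globin genes, and whether reads are split among them was not tested. Hbb-bs, a beta-globin, stood at 51.9, 177 and 45.4 against 30.96, 11.8 and 24.4 CPM (2.03, SE 0.65, edgeR adjusted p 0.21), and GFP 3-1 stood apart from the other 5 libraries. The median of the list ran from 1.04 to 2.20 over the alternative settings. Smooth muscle genes had 17 of 18 above 0 (median 0.54), with 4 at that limit. The ranges of 4 of them, or 22.2%, did not overlap, against 23.8% of all genes. All 4 were higher, as were 9.93% of all genes. Synm, an intermediate filament protein, stood at 85.97, 93.3 and 60.2 against 33.7, 44.1 and 44.1 CPM (0.97, SE 0.20, edgeR adjusted p 0.101), and the myosin kinase Mylk at 454, 464 and 358 against 274, 306 and 291 CPM (0.55, SE 0.17). The smooth muscle score overlapped, at 0.40, 0.49 and -0.11 against -0.71, 0.012 and -0.075. Whether more muscle or blood in a sample had a part in the mitochondrial share was not tested.

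Nerve, stroma and leukocyte lists went in both directions. Enteric neuron genes had 13 of 17 below 0 (median -0.33). Vip, a neuropeptide, stood at 13.1, 7.45 and 8.02 against 15.5, 19.6 and 20.9 CPM (-0.97, SE 0.25), lower in every rich library. Collagen and fibroblast genes had a median of -0.13 over 18, though Col6a1 stood at 50.3, 45.7 and 38.1 against 73.2, 65.7 and 81.3 CPM (-0.72, SE 0.16). For granulocytes and mast cells the median was -0.79 over 10 genes, of which 1 did not overlap. The score of that list was -0.45, -0.44 and -0.40 in the rich and -0.087, 0.81 and 0.58 in the poor libraries, so its ranges lay apart, with PKCzeta 4-1 and 4-2 the highest. S100a9, a neutrophil protein, stood at 1.13, 0.212 and 1.73 against 1.94, 17.6 and 10.5 CPM. T and NK cell genes had 16 of 17 above 0 (median 0.41) with 3 at an unadjusted p under 0.05, and macrophage and dendritic cell genes 12 of 16 below 0 (median -0.31). Mesothelial genes had a median of 1.35 over 13 and their score overlapped, high in GFP 1-1 and GFP 3-1 and not in PKCzeta 2-1. Their summed share of counts, most of it Krt19, a keratin that epithelial cells also express, went the other way, at 0.0946%, 0.139% and 0.134% against 0.201%, 0.143% and 0.231%. With the label as a covariate that median was 0.38. The B cell list had a median of 1.19 over 12 with 0 that did not overlap, adipocytes 0.47 over 14, enteric glia 0.35 over 12, interstitial cells of Cajal 0.25 over 11, blood endothelium -0.30 over 14 and lymphatic endothelium -0.15 over 8. Of the organs beside the gut, the liver list had a median of -0.048 over 8, with Ttr, a plasma carrier protein, at 3.34, 3.23 and 5.09 against 4.66, 3.01 and 4.87 CPM, and the pancreatic acinar list -0.64 over 6, with the lipase cofactor Clps at 11.2, 18.4 and 10.6 against 49.7, 20.3 and 35.03 CPM.

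Immediate early genes, switched on within minutes of a stimulus, had 19 of 23 values above 0 (median 0.70). At an unadjusted p under 0.05 in edgeR 7 were higher and 1 lower, where 7.18% of all genes were higher and 9.99% lower. The ranges of 6, or 26.1%, did not overlap, against 23.8% of all genes. All 6 were higher, as were 9.93% of all genes. Fos stood at 56.9, 91.3 and 42.3 against 26.5, 26.3 and 15.7 CPM (1.48, SE 0.32, edgeR adjusted p 0.105), and Klf6, a zinc finger factor, at 594, 665 and 664 against 381, 352 and 269 CPM (0.94, SE 0.18, edgeR adjusted p 0.0969). Both were higher in every rich library. The score of the whole list overlapped, while its summed share of counts did not. On log2(TPM + 1) the median of this list was 0.13, where the median of all genes was itself -0.15. Interferon-stimulated genes had 27 of 38 above 0 (median 0.31), 11 higher and 1 lower at an unadjusted p under 0.05. Tap1, which loads peptides for MHC class I, stood at 58.1, 78.5 and 59.6 against 40.1, 36.4 and 31.9 CPM (0.86, SE 0.17), and the antiviral gene Rsad2 at 7.01, 16.2 and 9.71 against 4.797, 4.82 and 4.02 CPM (1.27, SE 0.31). Genes of hypoxia and glycolysis had a median of -0.056 over 19.

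The genes of smallest p that stood higher in the rich libraries included 3 regulators. Per1, a repressor of the circadian clock (chr11:69095108-69109965), stood at 22.4, 28.4 and 25.4 against 9.77, 11.2 and 7.89 CPM (1.40, SE 0.19). Smad7, the inhibitor of TGF-beta signalling, stood at 25.5, 32.8 and 25.4 against 11.5, 12.9 and 9.503 CPM (1.30, SE 0.18), and the forkhead factor Foxo1 at 27.9, 27.99 and 30.2 against 16.02, 12.2 and 14.8 CPM (1.00, SE 0.16). In each, every rich library was higher than any poor one. Fyco1, Mef2d, Dusp10, Tut4 and Tox3 had log2 fold changes of 0.86, 0.93, 1.16, 0.99 and 0.95, and Tbrg3 had 2.17 but lies within the larger Tcf20. The edgeR adjusted p was 0.087 for all of these. Among those that stood lower, Mptx2, a mucosal pentraxin, was at 84.8, 91.3 and 91.4 against 210.3, 196 and 222 CPM (-1.23, SE 0.13), and Habp2, a hyaluronan-binding protease, at 8.81, 8.48 and 7.29 against 33.2, 17.97 and 28.96 CPM (-1.71, SE 0.24). Pop1, a protein shared by RNase P and RNase MRP (chr15:34495311-34530653), was at 1.83, 1.45 and 2.04 against 5.98, 5.897 and 8.68 CPM (-1.95, SE 0.26). The fucosyltransferase gene Fut1, the histones H2bc12 and H2ac15 and the pseudogene Marcksl1-ps4 completed the lower genes, with -2.26, -1.21, -1.10 and -1.89, each with an edgeR adjusted p of 0.087.

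Gene length ran alongside the sides. Nuclear protein-coding genes were ordered by the longest GENCODE transcript of their symbol, found for 15013 genes (98.7%), and cut into 5 groups of like size. The median log2 fold change was -0.085, -0.053, -0.043, 0.0070 and 0.14 from the shortest group (median 1386 bases) to the longest (6792 bases). The share of genes higher in all 3 rich libraries was 5.39% in the shortest and 15.5% in the longest group, and the share lower in all 3 was 19.5% and 7.53%. For G and C content the medians were 0.054 in the group with the least and -0.026 in that with the most. RNA integrity was not analysed here, and the part of length in the lists above was not tested.

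**Figure D5:**
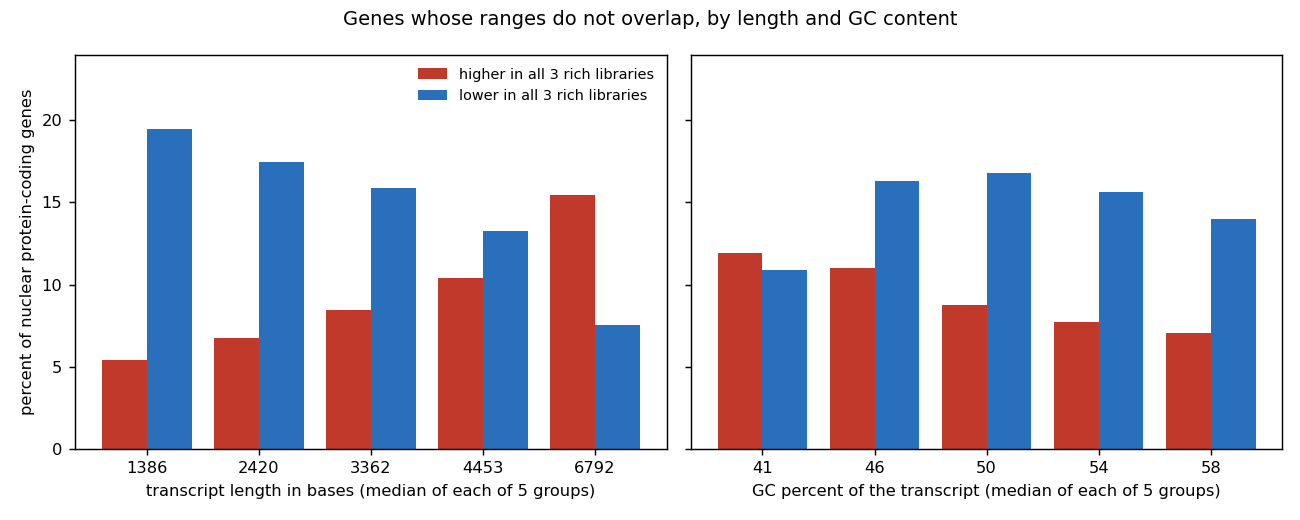
Percent of nuclear protein-coding genes (y axis, from 0) whose values in all 3 rich libraries lie above (red) or below (blue) those of all 3 poor libraries, for 5 groups of genes by longest transcript length (left) and G and C content (right; x axes give the median of each group). The red bars grow from 5.39% to 15.5% and the blue bars shrink from 19.5% to 7.53% with length.

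The label comparison was refitted with the side as a term, to see what the labels showed beside this axis. With it, 0 of 18454 genes (0.0%) passed an adjusted p of 0.05 in edgeR between PKCzeta and GFP labels, 1050 (5.69%) had an unadjusted p under 0.05, and DESeq2 called 158 (0.576%). The difference for Prkcz was -0.17 in log2 units (PKCzeta minus GFP, SE 0.25, edgeR adjusted p 0.963) and Slc2a1, the glucose transporter GLUT1 named in the study's title, 0.33 (SE 0.28, edgeR adjusted p 0.931). Conversely, with the label as a term the medians along the sides were 1.45 for mitochondrial mRNAs, -1.55 for Paneth cell genes, -0.90 for the cell cycle, -0.81 for histones and -0.69 for ribosome biogenesis, and 2 genes passed. With 6 libraries both terms rest on few samples, and a gene that missed the threshold is not shown to be equal.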

How the data were processed

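Total RNA was extracted with a column kit, depleted of rRNA and made into strand-marked libraries, per the labels' protocols. Per the submitters' processing notes, the tools were FastQC, Trimmomatic, HISAT2 and StringTie and the build mm10; the counting program and its strand setting are not given in the sources used here, so antisense overlaps cannot be separated. The deposited read counts are whole numbers per gene without normalisation. The authors also deposited FPKM values, which were not used, and TPM values, used for 2 alternatives; per the file headers both stand beside the counts. All 6 libraries had a column, and 0 columns lacked a sample.

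The share of rRNA rows was computed per library. For gene tests rRNA rows were removed, genes kept by filterByExpr (minimum count 10; 18454 left), libraries scaled by TMM, and sides compared by edgeR 4.0.16 (quasi-likelihood F test, robust, two-sided) in R 4.3.3, with Benjamini-Hochberg adjustment and a threshold of 0.05. The biological coefficient of variation was 0.325, so replicate spread rather than counting error limits precision. Scores use log2(CPM + 0.5). Of 923 entries in 42 lists and 9 added ones, 918 were found in the table. The members and lists were chosen with earlier results of these data known.

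Named genes were Rmrp, Rn7sk, Rpph1, Malat1, Neat1, Prkcz, Slc2a1, Xist and the mitochondrial mRNAs in any case, the 12 per direction with the smallest p, a mean of at least 1 CPM and no overlap (since under 5 genes passed), without receptor segments or gene models lacking a symbol, and up to 4 per list by p; some are given by count only. Alternatives were DESeq2 1.42.0, limma 3.58.1 (voom with quality weights, log2(TPM + 1), log2(TPM + 0.1)), other scalings and filters, rRNA rows kept, mitochondrial rows out, nuclear protein-coding rows only, the label as a covariate, the rRNA percent as a number and leaving out each library. The edgeR step was tested on simulated counts. A gene and a sequence are not reported here. Positions are from RefSeq (GRCm38.p6) and GENCODE M21, both of build GRCm38.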

Additional observations from a re-analysis of the deposited data

How the results depend on the processing

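Between the sides 1 gene passed (0 higher, 1 lower). The count was 0 (0 lower) in nuclear protein-coding rows, which leave out Iglv2, and 2 (2 lower) with the label as a covariate, the other being the defensin-like AY761184. It was 595 (84 higher, 511 lower) with the rRNA percent as a number, 1120 (425 and 695) in DESeq2, where 11199 genes had no adjusted p, 152 (6 and 146) on log2(TPM + 1), 333 (16 and 317) on log2(TPM + 0.1) and, at an adjusted p of 0.1 chosen after seeing the data, 189 (39 and 150). Leaving out 1 library gave 0 to 2 (0 to 1 higher, 0 to 1 lower), with 0 without GFP 1-4, GFP 3-1 or PKCzeta 2-1 and 2 without PKCzeta 4-1. Between labels with the side in the fit, DESeq2 called 158 (93 and 65), and leaving out 1 library gave 0 to 1 (0 to 1 lower), with 1 without GFP 3-1. The cause of these differences was not tested. On the TPM scales the median of all genes was -0.15 (pseudocount 1) and -0.25 (0.1), and the share of higher genes at an unadjusted p under 0.05 went from 41.8% to 7.67% and 7.66%. Directions turned for Prkcz (0.14 with the rRNA percent as a number, and -0.26 to 0.10 on leaving out 1 library, above 0 without GFP 1-1, GFP 1-4 or PKCzeta 4-1), Slc2a1 (-0.37 to 0.15 on leaving out 1 library, above 0 without PKCzeta 4-2), ND6 (-0.0088 and -0.012 on the TPM scales), Y-linked genes (median -0.075 and -0.076 there) and the pancreatic list (median -0.64 over 6 genes, but 0.75 with no filter and 0.84 in DESeq2, both over 13). Over all settings the medians of further lists lay on both sides of 0: enterocytes (-0.080 to 0.65), proximal small intestine (-0.30 to 0.39), enteroendocrine (-0.21 to 0.18) and tuft cells (-0.22 to 0.20), liver (-0.33 to 0.14), hypoxia and glycolysis (-0.34 to 0.029), interstitial cells of Cajal (-0.0023 to 0.31) and 7SK particle proteins (-0.38 to 0.0030). Medians of mitochondrial mRNAs, structured RNAs, Paneth cell, cell cycle, histone and ribosome biogenesis genes kept their direction in all 19 alternative fits. No paired analysis was possible because the label groups share no replicate number.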

Other observations

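Complete families and complexes that touch on the RNAs described above were looked up after the values were seen, and are given as values with no test. The proteins of RNase P and RNase MRP stood opposite to the RNase P RNA. All 10 had log2 fold changes below 0 (median -0.63), and 5 did not overlap between the sides. Rpp38, which binds the RNA, stood at 0.975, 1.52 and 1.32 CPM in the rich and 3.45, 3.23 and 4.401 CPM in the poor libraries (-1.54, SE 0.28), and overlaps Nmt2, which has the higher count. The proteins of the signal recognition particle, whose RNA is 7SL, had a median of -0.10 over 7, and those bound to 7SK -0.087 over 7. Larp7, which protects the end of 7SK, stood at 11.4, 10.3 and 11.6 against 19.8, 15.7 and 21.1 CPM (-0.76, SE 0.17).

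Other parts of protein synthesis stood lower in the rich libraries. All 19 aminoacyl-tRNA synthetases tested were below 0 (median -0.52), among them Yars, which charges tRNA with tyrosine, at 17.9, 15.8 and 16.5 against 29.3, 30.5 and 37.96 CPM (-0.96, SE 0.16). All 8 subunits of the chaperonin TRiC, which folds actin and tubulin, were below 0 (median -0.49), and none overlapped. Cct3 stood at 94.9, 90.6 and 91.8 against 152, 129 and 173 CPM (-0.71, SE 0.15).

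Clock and mucosal barrier genes gave a mixed picture. Of 18 circadian clock genes 14 were above 0 (median 0.32), and 5 of them, or 27.8%, did not overlap, against 23.8% of all genes. All 5 were higher, as were 9.93% of all genes. The summed share of counts of the list overlapped, but its score did not, at 0.33, 0.065 and 0.094 against -0.18, 0.0043 and -0.31. Nr1d1, the repressor REV-ERB alpha, stood at 14.3, 18.00 and 13.02 against 10.4, 9.17 and 4.76 CPM (0.90, SE 0.30), and Npas2, a partner of BMAL1, at 11.4, 19.1 and 9.57 against 7.21, 6.49 and 5.497 CPM (1.06, SE 0.28). All 5 mucin genes tested were above 0 (median 1.00), Muc2 among them, and 2 did not overlap. The score and the summed share of counts of the mucin list were both higher in every rich library. Of 6 regenerating lectins 4 were above and 2 below 0 (median 0.44). Their score overlapped, while their summed share of counts was higher in every rich library. Reg3b, a C-type lectin of the epithelium, stood at 9288, 5848 and 9551 against 3925, 4196 and 1949 CPM (1.29, SE 0.35). Reg4, which is also in the Paneth cell list, stood at 18.8, 58.7 and 32.4 against 68.5, 68.03 and 119 CPM (-1.22, SE 0.44). Reg3b was higher and Reg4 lower in every rich library. Of 11 immunoglobulin constant regions 4 were above and 7 below 0 (median -0.78), and 3 did not overlap, all lower. Their score overlapped, while their summed share of counts was lower in every rich library. Igha, the heavy chain of IgA, stood at 1245, 763 and 871 against 5338, 1825 and 2499 CPM (-1.75, SE 0.42), lower in every rich library. Ighm, the heavy chain of IgM, stood at 63.5, 3.396 and 151 against 30.4, 5.02 and 79.9 CPM (0.92, SE 1.42) and overlapped.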
